A study of Mus musculus with 6 samples.

Results

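The red cell surface genes followed here, through the induced differentiation of the mouse erythroleukemia line MEL, are Slc4a1, Rhag, Rhd, Gypc, Kel, Xk, Aqp1, Ermap and Icam4. They are 9 of the 23772 gene symbols that the deposited transcripts map to. Each of the 9 has 1 transcript in the files, so no choice between isoforms was needed, and all 9 passed the filter on low counts. The groups are MEL cells at day 0, before DMSO, and at day 2 and day 4 after 2% DMSO was added to log-phase suspension cultures, with 2 biological replicates a day and 6 mRNA-seq libraries in all. All groups are the same leukemic line under the same medium, no DMSO-free culture of the later days is analysed here, and the labels name no genetic change. Without such a culture time in culture and DMSO cannot be told apart. The sources used here do not say more about what separates the replicates, and the p-values measure the spread between these cultures.

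These proteins carry blood group antigens in people and also do mechanical or transport work. Band 3, the product of Slc4a1, exchanges chloride for bicarbonate and holds the membrane to the spectrin skeleton through ankyrin, and the Rh proteins Rhag and Rhd sit in the same complex. Glycophorin C is the anchor of a separate junction built on protein 4.1 and p55. Kell, an endopeptidase of the cell surface, is bound to the multipass protein XK, while aquaporin-1 is the water channel of the red cell. Ermap and Icam4 are immunoglobulin-superfamily proteins, and Icam4 binds integrins. Many genes of this lineage are regulated by GATA1 at GATA motifs and by KLF1 at CACCC motifs.

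Promoter sequence is shown for 4 members to set the letters of those motifs beside the changes that follow. The windows cover up to 250 bases before the start set for each promoter on GRCm38.p6, written 5′ to 3′ on the strand of the gene. Bases downstream of any annotated start further upstream were not printed. Capitals mark GATA matches (AGATAA or AGATAG or TGATAA or TGATAG, or their reverse complements) and CACCC matches (CACCC or its reverse complement GGGTG). Rhd is shown as having the largest first step of the 7 members whose promoters were scanned, and Kel for its GATA match in a gene that rose in both steps. Ermap is shown for a GATA and a CACCC match side by side, and Aqp1 as a gene that rose early with no GATA match in the window.
Rhd, chr4:134864286-134864535, plus strand: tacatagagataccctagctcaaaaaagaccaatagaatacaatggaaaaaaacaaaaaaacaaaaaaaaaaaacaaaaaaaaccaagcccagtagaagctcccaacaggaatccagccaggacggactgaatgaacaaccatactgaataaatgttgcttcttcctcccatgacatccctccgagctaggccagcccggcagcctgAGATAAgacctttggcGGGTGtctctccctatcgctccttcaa
Kel, chr6:41704340-41704575, minus strand: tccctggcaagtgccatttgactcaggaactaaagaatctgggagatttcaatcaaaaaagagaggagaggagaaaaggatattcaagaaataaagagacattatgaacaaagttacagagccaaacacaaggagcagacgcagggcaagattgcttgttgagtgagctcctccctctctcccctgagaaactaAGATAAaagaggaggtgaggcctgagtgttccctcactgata
Ermap, chr4:119190014-119190245, minus strand: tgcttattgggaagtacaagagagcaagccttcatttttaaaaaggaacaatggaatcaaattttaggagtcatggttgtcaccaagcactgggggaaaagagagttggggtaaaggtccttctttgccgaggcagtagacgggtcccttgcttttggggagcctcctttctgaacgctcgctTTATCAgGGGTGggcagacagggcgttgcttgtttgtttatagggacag
Aqp1, chr6:55336049-55336298, plus strand: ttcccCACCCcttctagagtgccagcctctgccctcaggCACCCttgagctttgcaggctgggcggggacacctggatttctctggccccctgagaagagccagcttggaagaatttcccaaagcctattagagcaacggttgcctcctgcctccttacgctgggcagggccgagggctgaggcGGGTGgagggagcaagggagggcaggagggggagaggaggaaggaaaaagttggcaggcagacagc

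The GATA match of Rhd begins at position -43 and its CACCC match at -27, with all positions counted from the start set for each promoter. For Kel and Ermap that start lies inside the gene coordinates given below, so their positions are not distances from the gene's outer end. The printed GATA match of Kel begins at -56, and Kel has another at -19, left in lower case because its last base lies past the end of the printed run. In Ermap the GATA match begins at -67 and the CACCC match at -60. Aqp1 has CACCC matches at -245, -211 and -66. Promoters of 7 members were scanned, and Slc4a1 and Gypc were left out of the scan. Of these 7, 5 held a GATA match within 250 bases (71.4%), against 26.5% of 32851 mouse promoters of the same length. All 7 held a CACCC match, against 52.0%. The 2 without a GATA match were Xk and Aqp1. These counts use the full window, for the members and for all promoters alike, so they include matches downstream of an annotated start further upstream. The only CACCC matches of Kel (-5), Xk (-7) and Icam4 (-53) lie there, as do the only GATA matches of Rhag (-31) and Icam4 (-43). These are matches of letters and no binding was measured.

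The libraries held 35294930 to 53899476 counts on transcripts. Levels are given as CPM, counts scaled by the TMM-adjusted library size, within a gene, and as TPM, which also divides by transcript length and gives each library the same total, between genes. Changes come from edgeR's quasi-likelihood test over all 6 libraries, with Benjamini-Hochberg adjustment over 18351 transcripts, and a change was called at an adjusted p below 0.05. The 12334 tested genes had a median log2 fold change of 0.01 in the first step (day 0 to day 2), -0.00 in the second (day 2 to day 4) and -0.02 over the whole interval (day 0 to day 4). With total counts in place of TMM these medians were 0.21, -0.09 and 0.10, and the share of called genes that were higher went from 49.6% to 63.4% in the first step, from 46.4% to 32.6% in the second and from 49.4% to 55.1% over the whole interval. Fold changes and CPM that follow are on the TMM scale unless another scaling is named. TPM does not use the TMM factors, so its course over the days can differ from that of CPM.

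The cells carried an erythroid profile throughout. The 7 erythroid markers summed to 1043 and 1124 CPM at day 0, and to 12635 and 14664 CPM at day 4. Most of the day 4 sums was Hba-a1, at 9793 and 11460 CPM. Over the whole interval 6 of the 7 were called higher and Klf1 lower (35.5% and 36.4% of all tested genes). The 5 megakaryocyte markers summed to 271 and 277 CPM at day 0, 215 and 237 at day 2, and 545 and 620 at day 4. Most of each sum was Itga2b, at 209 and 227 CPM at day 0 and 531 and 606 at day 4. Pf4 went the other way, from 57.4 and 42.6 CPM at day 0 to 10.2 and 8.93 at day 4. Over the whole interval 2 of the 5 were called higher and 3 lower, against the same 35.5% and 36.4% of all tested genes. The 5 myeloid and mast cell markers summed to between 0.335 and 3.77 CPM and the 4 lymphoid markers to at most 0.172 CPM in any library, with Cd8a at 0 counts. The part of the megakaryocyte markers in the changes below was not tested, and in bulk libraries fewer cells of a type and less RNA per cell cannot be told apart.

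Between day 0 and day 2, 7 of the 9 members were called higher and none lower, with a median log2 fold change of 1.08. Among all tested genes 31.0% were called higher and 31.5% lower in this step. Between day 2 and day 4, 3 members were higher (Slc4a1, Gypc and Kel) and 1 lower (Icam4), with a median of 0.12, where 14.0% of tested genes were higher and 16.2% lower. Over the whole interval, 7 members were higher, Icam4 was lower and Rhag was not called, with a median of 1.57, against 35.5% higher and 36.4% lower among tested genes. The signed log2 fold change of the second step was below that of the first, by a test of the difference between the steps, in 6 members, and above it in none, where it was below in 16.9% and above in 13.2% of tested genes. In Icam4, 1 of the 6, the second step was a fall, larger in size than the first. That count of 6 was 2 without day 2 replicate 2 (Rhd and Aqp1). All comparisons share libraries, day 2 entering both steps. The members fell into 4 courses. Slc4a1, Gypc and Kel rose in both steps. Rhd, Aqp1, Xk and Ermap rose by day 2 and were not called after it. Rhag was called in neither step, and Icam4 was lower after day 2.

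**Figure D1:**
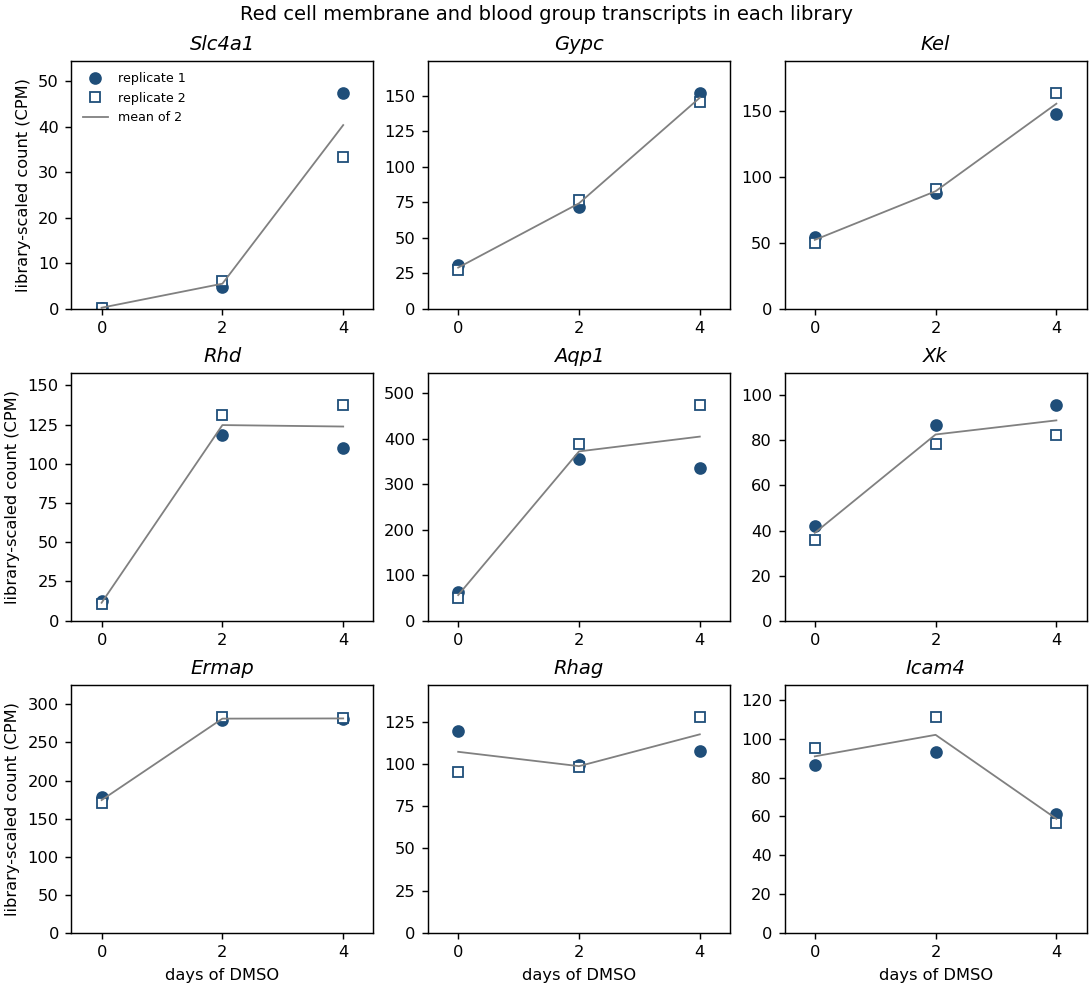
Library-scaled count (CPM, linear axes that start at 0) of each member in each of the 6 libraries against days of DMSO; symbols are replicates and the grey line joins the means of 2. Slc4a1, Gypc and Kel stand higher at each later day, Rhd, Aqp1, Xk and Ermap rise by day 2 and were not called after it, Rhag overlaps between day 0 and the later days, and Icam4 is lowest at day 4.

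Slc4a1 (RefSeq NM_011403) encodes band 3 and lies at chr11:102348820-102365281 on the minus strand of GRCm38, with 20 exons and a coding sequence of 929 codons. It was close to undetected before DMSO, with 9 and 12 counts in the day 0 libraries, whose exact 95% Poisson intervals run from 4.12 to 17.1 and from 6.20 to 21.0. Day 2 libraries held 203 and 303 counts and day 4 libraries 1710 and 1513. In CPM these were 0.221 and 0.242 at day 0, 4.86 and 6.17 at day 2, and 47.4 and 33.4 at day 4, so that no library of one day overlapped those of another. The log2 fold change was 4.56 (SE 0.30, adjusted p = 6.42e-07) in the first step and 2.87 (SE 0.19, adjusted p = 5.25e-05) in the second. Over the whole interval it was 7.42 (SE 0.28, adjusted p = 9.69e-09), and 8 of the 12334 tested genes had a larger one.

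The first step of Slc4a1 exceeded the second on the log2 scale by 1.69 (SE 0.44, adjusted p = 0.0155), a call that is lost without day 2 replicate 2 (difference of second minus first -1.33, adjusted p = 0.141). In CPM the order is the other way round, and the level at day 2 was 13.2% of the way from the day 0 mean to the day 4 mean. Despite its rise, Slc4a1 had the lowest TPM of the 9 members in every library. It stood at 0.167 ± 0.0068 TPM (SD, n = 2) at day 0, 4.72 ± 0.758 at day 2 and 30.5 ± 8.06 at day 4, when the other members ran from 60.0 to 526 TPM.

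Its relative Slc4a2, the anion exchanger that most tissues use, had the highest mean TPM of the 9 other Slc4 genes listed. Slc4a2 stood at 44.7 and 50.0 TPM at day 0, 54.96 and 57.1 at day 2, and 57.0 and 53.7 at day 4, and it was called in no step (log2 fold change over the whole interval 0.16, SE 0.11, adjusted p = 0.202). The Slc4a2 level was above that of Slc4a1 in all 6 libraries.

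Aqp1 (NM_007472, chr6:55336299-55348555, plus strand, 4 exons, 269 codons) is the water channel of the red cell and carries the Colton antigens in people. Its 6 libraries held 63.0 and 49.7 CPM at day 0, 356 and 388 at day 2, and 336 and 473 at day 4. Both later days lie above day 0, and the day 4 cultures lie on both sides of the day 2 cultures. The log2 fold change was 2.72 (SE 0.18, adjusted p = 6.57e-07) in the first step and 0.12 (95% interval -0.25 to 0.49, adjusted p = 0.618) in the second, and the steps differed by 2.60 (SE 0.28, adjusted p = 0.000173). Aqp1 ranked first of the members by TPM at days 2 and 4, with 551 ± 29.3 and 526 ± 116 TPM (SD, n = 2), after 70.5 ± 13.5 at day 0.

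Among the other aquaporins, Aqp9, which passes glycerol and other small solutes, was the most abundant and went the other way, from 48.2 CPM in each day 0 library to 9.46 and 7.57 at day 2 and 8.81 and 11.7 at day 4 (log2 fold change over the whole interval -2.23, SE 0.16, adjusted p = 4.93e-07). The Aqp9 values are those of NR_073483, a transcript that RefSeq classes as non-coding. Aqp3, a further glycerol channel, rose in the first step by 1.10 on the log2 scale (SE 0.25, adjusted p = 0.00257) and fell by 0.89 in the second (SE 0.25, adjusted p = 0.0202), at levels of 0.980 to 2.49 CPM.

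Of the Rh pair, Rhd was called higher and Rhag was not. Rhag (NM_011269, chr17:40811099-40844094, plus strand, 10 exons, 438 codons) encodes the glycoprotein that the Rh polypeptide needs to reach the membrane and that conducts ammonium. It held 119 and 95.01 CPM at day 0, 99.2 and 98.1 at day 2, and 107 and 128 at day 4. The day 0 libraries span those of day 2, and the day 4 libraries stand above those of day 2 but overlap those of day 0. Neither step was called (log2 fold change -0.12, 95% interval -0.41 to 0.17, adjusted p = 0.448; then 0.25, interval -0.04 to 0.54, adjusted p = 0.166). For day 4 against day 0 it was 0.13 (interval -0.15 to 0.42, adjusted p = 0.374). The first change turns positive with total counts (0.08). Single libraries decide these values: without day 0 replicate 1 the change for day 4 against day 0 was called higher (0.30, adjusted p = 0.0292), and without day 0 replicate 2 the change for day 2 against day 0 was called lower (-0.28, adjusted p = 0.0427).

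Rhd (NM_011270, chr4:134864536-134896172, plus strand, 10 exons, 418 codons) encodes the Rh polypeptide itself. Its libraries held 12.5 and 10.4 CPM at day 0, 118 and 131 at day 2, and 110 and 137 at day 4. The day 2 and day 4 libraries overlap and lie far above both day 0 libraries. The log2 fold change was 3.45 in the first step (SE 0.15, adjusted p = 8.41e-08) and -0.01 in the second (95% interval -0.30 to 0.28, adjusted p = 0.961). The steps differed by 3.46 (SE 0.22, adjusted p = 2.37e-05).

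The ratio of the pair fell below 1 in all 4 DMSO libraries. On the TPM scale there were 6.18 and 5.92 Rhag transcripts for each Rhd transcript in the day 0 libraries, 0.543 and 0.485 at day 2, and 0.631 and 0.602 at day 4. The difference between the changes of the pair was not tested. The non-erythroid Rh relatives were close to undetected, with 2 counts of Rhcg over all 6 libraries and none of Rhbg.

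Gypc (NM_001048207, chr18:32528320-32560034, minus strand, 3 exons, 95 codons) encodes glycophorin C, which carries the Gerbich antigens in people. It held 30.6 and 27.4 CPM at day 0, 71.9 and 76.6 at day 2, and 152 and 146 at day 4. The replicates of each day lie close together and the days do not overlap. The log2 fold change was 1.36 (SE 0.11, adjusted p = 2.12e-06) in the first step and 1.00 (SE 0.10, adjusted p = 0.000181) in the second, and the steps were not called different (difference -0.36, SE 0.18, adjusted p = 0.156).

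Kel (NM_032540, chr6:41686329-41704334, minus strand, 19 exons, 713 codons) encodes the Kell endopeptidase, a member of the M13 family that cleaves big endothelin. It held 54.6 and 50.0 CPM at day 0, 87.7 and 90.7 at day 2, and 148 and 164 at day 4, and the days do not overlap. The steps were nearly equal on the log2 scale, at 0.77 (SE 0.11, adjusted p = 0.000102) and 0.80 (SE 0.11, adjusted p = 0.000531), with a difference of 0.03 (95% interval -0.37 to 0.44, adjusted p = 0.911). Ece1, the most abundant of the other M13 peptidases listed and also an enzyme that cleaves big endothelin, stayed between 34.1 and 38.8 CPM in the 6 libraries and was not called in either step.

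Xk (NM_023500, chrX:9272784-9313245, plus strand, 3 exons, 446 codons) encodes the protein to which Kell is bound. It held 42.2 and 35.7 CPM at day 0, 86.9 and 78.3 at day 2, and 95.5 and 82.2 at day 4. The day 2 and day 4 libraries overlap. It rose by 1.08 on the log2 scale in the first step (SE 0.12, adjusted p = 2.74e-05), and the second step was 0.11 (95% interval -0.16 to 0.37, adjusted p = 0.547). Its steps differed by 0.98 (SE 0.21, adjusted p = 0.0064), a call lost without day 2 replicate 1 (-0.83, adjusted p = 0.129) or day 2 replicate 2 (-1.13, adjusted p = 0.051).

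Between days 2 and 4, Kel was called higher where its partner was not. There were 2.60 and 2.81 Kel transcripts for each Xk transcript on the TPM scale at day 0, 2.03 and 2.33 at day 2, and 3.11 and 3.99 at day 4. The day 2 ratios are the lowest and the day 4 ratios the highest, although this ratio was not itself tested. Vps13a encodes a lipid transfer protein that binds XK and was picked for that role, after its values had been seen. It rose by 0.41 for day 4 against day 0 (SE 0.11, adjusted p = 0.00753) and was called in neither step. Xkr5, the most abundant of the Xk relatives listed, fell by 1.13 in the second step (SE 0.18, adjusted p = 0.00129).

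Ermap (NM_013848, chr4:119175457-119190013, minus strand, 13 exons, 592 codons) encodes the erythroid butyrophilin-like protein that carries the Scianna antigens in people. It held 179 and 170 CPM at day 0, 280 and 283 at day 2, and 281 and 282 at day 4. The 4 DMSO libraries differ by less than the 2 day 0 libraries do. The rise was 0.69 on the log2 scale (SE 0.11, adjusted p = 0.000212) and the second step was 0.00 (95% interval -0.23 to 0.23, adjusted p = 0.995). That the steps differ (by 0.69, SE 0.18, adjusted p = 0.0164) was no longer called without any one of the 4 DMSO libraries, while its size stayed between 0.65 and 0.73 when any of the 6 libraries was left out. Btn1a1, a butyrophilin known from milk fat, rose by 4.37 for day 4 against day 0 (SE 0.35, adjusted p = 1.09e-06), from 0.564 and 0.302 CPM to 6.18 and 11.4.

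Icam4 (NM_023892, chr9:21029432-21030596, plus strand, 3 exons, 262 codons) encodes the adhesion molecule of the Landsteiner-Wiener antigens. It held 86.7 and 95.3 CPM at day 0, 93.1 and 111 at day 2, and 61.1 and 56.5 at day 4. Both day 4 libraries lie below the other 4. It was not called in the first step (log2 fold change 0.17, 95% interval -0.09 to 0.42, adjusted p = 0.233), fell by 0.80 in the second (SE 0.12, adjusted p = 0.000938) and by 0.63 over the whole interval (SE 0.12, adjusted p = 0.000535). The steps differed by 0.96 (SE 0.20, adjusted p = 0.00534), a call lost without day 2 replicate 2 (-0.70, adjusted p = 0.129). With total counts the first step was called higher (0.37, adjusted p = 0.0192).

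The level of Icam4 itself is uncertain. All 971 bases of its exons lie under the exons of Gm47079, a gene annotated on the opposite strand, and although the libraries were made with a stranded kit, the sources used here do not give whether the counting used strand, so reads of the pair cannot be told apart. Icam1 and Icam5, of the same family, lie on either side of it. Icam1 fell by 0.60 in the first step (SE 0.12, adjusted p = 0.00115) and was not called in the second, whereas Icam5 rose by 0.76 in the first (SE 0.11, adjusted p = 0.00016) and by 1.07 over the whole interval (SE 0.11, adjusted p = 7.06e-06). Icam2, which is expressed on endothelium and leukocytes, fell by 3.25 over the whole interval (SE 0.15, adjusted p = 3.23e-08).

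**Figure D2:**
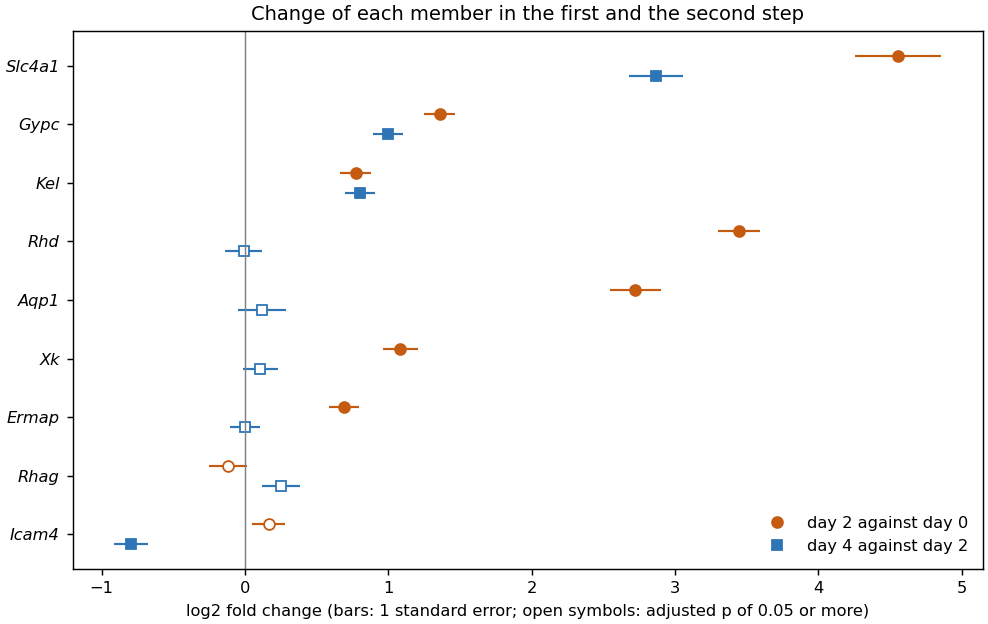
Log2 fold change of each member for day 2 against day 0 (orange circles) and day 4 against day 2 (blue squares), with bars of 1 standard error from edgeR over 6 libraries; filled symbols have an adjusted p below 0.05. The first step runs from -0.12 for Rhag to 4.56 for Slc4a1, and the second is filled for Slc4a1, Gypc, Kel and Icam4.

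The order of the members by length-scaled level was rearranged by day 2. At day 0 the members summed to 854 and 778 TPM, of which Icam4 held 34.9% and 40.7%, followed by Rhag with 19.9% and 16.8%. At day 2 they summed to 1952 and 2093 TPM, with Aqp1 at 27.2% and 27.3% and Icam4 at 19.2% and 21.2%. At day 4 the sums were 1837 and 2027 TPM, with Aqp1 at 24.2% and 30.0% and Rhd at 13.8% and 15.1%. Icam4 and Rhag, the leading members at day 0, are the ones not called higher over the whole interval. At day 0 the mean levels were 307 TPM for Icam4, 151 for Rhag, 126 for Ermap, 70.5 for Aqp1, 67.9 for Kel, 43.7 for Gypc, 25.2 for Xk, 24.8 for Rhd and 0.167 for Slc4a1. In that order Rhag and Ermap, Aqp1 and Kel, and Xk and Rhd each lie within the spread of their replicates. At day 2 the means were 551 TPM for Aqp1, 409 for Icam4, 320 for Rhd, 241 for Ermap, 164 for Rhag, 137 for Kel, 133 for Gypc, 63.3 for Xk and 4.72 for Slc4a1, with Kel and Gypc within their spread. At day 4 they were 526 TPM for Aqp1, 280 for Rhd, 234 for Gypc, 212 for Ermap, 211 for Kel, 208 for Icam4, 172 for Rhag, 60.0 for Xk and 30.5 for Slc4a1. Ermap, Kel and Icam4 are neighbours there whose libraries overlap.

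**Figure D3:**
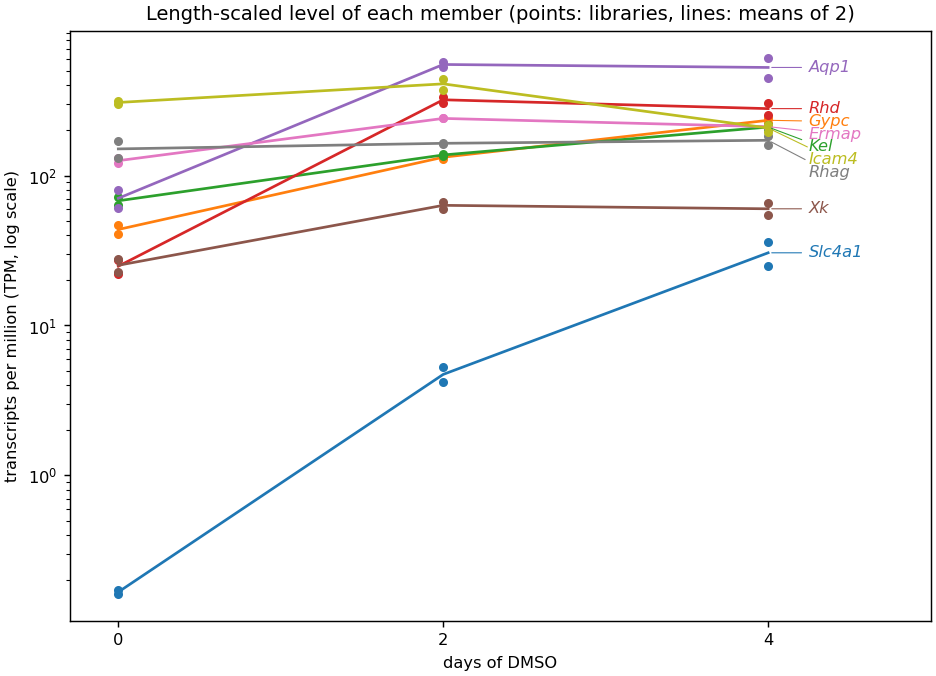
Length-scaled level (TPM, log axis) of each member against days of DMSO; points are libraries and lines join the means of 2. Slc4a1 is the lowest line at every day, rising from 0.167 to 30.5 TPM, and the Rhd line crosses that of Rhag between day 0 and day 2.

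Genes for the proteins that hold the membrane to the skeleton were more often higher than lower. Of 13 skeleton and anchoring genes, all tested, 10 were higher and 3 lower over the whole interval, with a median log2 fold change of 0.97, against 35.5% higher and 36.4% lower among tested genes. The first step had 7 higher and 4 lower (31.0% and 31.5% of all), and the second 6 higher and none lower (14.0% and 16.2%). Epb42, which encodes protein 4.2 of the band 3 complex, rose by 4.10 (SE 0.13, adjusted p = 6.88e-09), from 4.63 and 4.53 CPM at day 0 to 45.6 and 53.9 at day 2 and 78.8 and 78.2 at day 4. Sptb, β-spectrin, rose by 2.91 (SE 0.16, adjusted p = 7.57e-08). Add2, an adducin of the skeletal junctions, fell by 1.18 (SE 0.12, adjusted p = 4.54e-06) and Tpm1, a tropomyosin, by 0.79 (SE 0.11, adjusted p = 6.68e-05).

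Direct partners of the members were picked for their roles, after their values had been seen. Ank1, the ankyrin that ties band 3 to spectrin, was at 61.2 and 70.7 TPM at day 0, when Slc4a1 was at 0.162 and 0.172 TPM, and rose by 1.35 (SE 0.13, adjusted p = 9.01e-06) in the first step and 0.41 (SE 0.13, adjusted p = 0.0368) in the second. The Ank1 values are those of NR_102386, a transcript that RefSeq classes as non-coding. Epb41, the protein 4.1 gene, was not called in the first step (-0.07, adjusted p = 0.674) and rose by 0.78 in the second (SE 0.13, adjusted p = 0.00182). Mpp1, the p55 gene, rose by 0.64 in the first step (SE 0.12, adjusted p = 0.000717), and its second step missed the threshold (0.33, adjusted p = 0.0552). Both bind glycophorin C, whose gene rose in each step.

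Of 23 other genes for carriers of blood group antigens, 22 were tested, and over the whole interval 15 of them were called higher and 3 lower (35.5% and 36.4% of all tested genes), with a median of 1.05. The first step had 13 higher and 3 lower (31.0% and 31.5% of all), and the second 5 and 3 (14.0% and 16.2%). Ache, acetylcholinesterase and carrier of the Cartwright antigens, rose by 4.72 (SE 0.19, adjusted p = 1.51e-08), from 12.2 and 8.22 CPM at day 0 to 250.3 and 286 at day 4. Cd44, the hyaluronan receptor, fell by 2.22 (SE 0.13, adjusted p = 1.22e-07), and Piezo1, a stretch-gated channel, by 0.40 (SE 0.11, adjusted p = 0.00526). Sema7a was not tested, with at most 5 counts in a library.

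Of 17 further transporters and membrane proteins of the red cell, all tested, 10 were higher and 4 lower over the whole interval (35.5% and 36.4% of all tested genes), with a median of 0.94. The first step had 11 higher and 3 lower (31.0% and 31.5% of all), and the second 6 and 2 (14.0% and 16.2%). Atp2b4, a calcium pump, rose by 2.77 (SE 0.18, adjusted p = 2.30e-07) and Mfsd2b, the exporter of sphingosine-1-phosphate, by 2.70 (SE 0.13, adjusted p = 3.02e-08). Slc2a1, the glucose transporter GLUT1, fell by 3.49 (SE 0.15, adjusted p = 1.66e-08), from 103 and 104 CPM at day 0 to 9.27 and 11.5 at day 2 and 8.37 and 10.1 at day 4. Kcnn4, the calcium-activated potassium channel, fell by 1.40 (SE 0.15, adjusted p = 6.97e-06).

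The wider families of the members were sparse. Of 39 relatives, 19 passed the filter, and over the whole interval 5 of them were called higher and 6 lower, neither above the 35.5% and 36.4% of all tested genes, with a median of 0.22. The first step had 6 higher and 3 lower (31.0% and 31.5% of all), and the second 1 and 6 (14.0% and 16.2%). The 20 relatives that were not tested had at most 16 counts in any library. Btn1a1, Icam5, Icam2 and Aqp9, given above, had the largest rises and falls of those whose average log2 CPM was 1 or more.

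**Figure D4:**
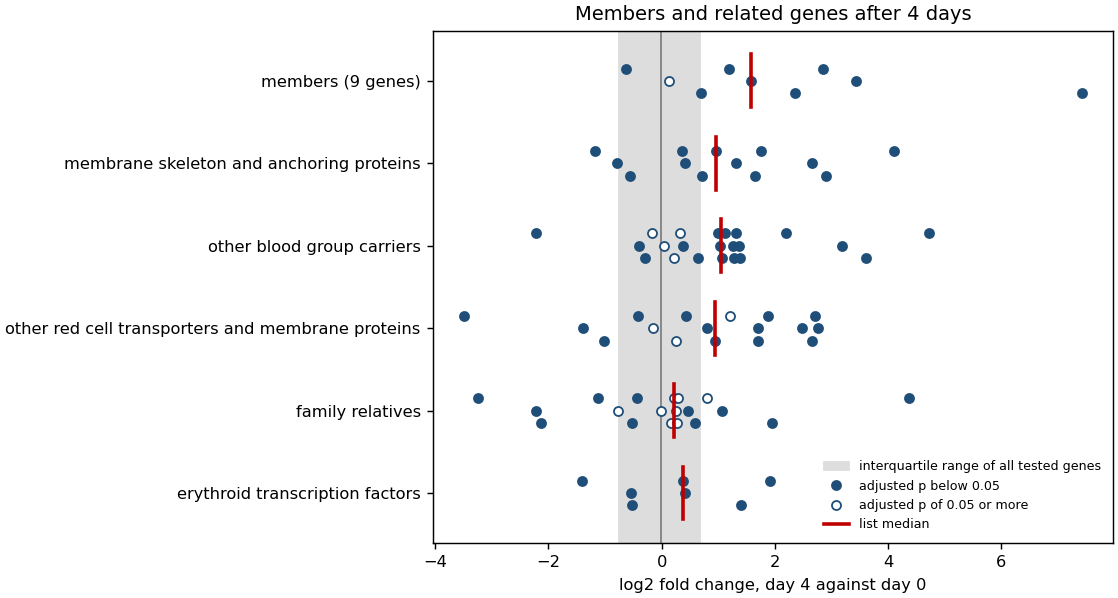
Log2 fold change over the whole interval, day 4 against day 0, of each tested gene of the 9 members and of 5 related lists; filled circles have an adjusted p below 0.05, red bars are list medians, and the grey band is the interquartile range of all 12334 tested genes. The members' median is 1.57 and that of the family relatives 0.22.

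Among 7 erythroid transcription factors, 4 were higher and 3 lower over the whole interval (35.5% and 36.4% of all tested genes), so small a list that a single gene moves its share widely. The first step had 2 higher and 3 lower (31.0% and 31.5% of all), with 4 higher under total counts, and the second 4 and 1 (14.0% and 16.2%). Tal1 rose by 1.92 (SE 0.14, adjusted p = 4.37e-07) and Zfpm1, which encodes the GATA1 cofactor FOG1, by 1.41 (SE 0.11, adjusted p = 1.14e-06). Gata1 rose by 0.37 (SE 0.11, adjusted p = 0.00772), from 202 and 203 CPM to 261 and 263, and was called in neither step. Klf1 fell by 0.54 (SE 0.18, adjusted p = 0.0188), and Lmo2, which bridges TAL1 and GATA1, by 1.41 (SE 0.11, adjusted p = 9.18e-07). The Klf1 libraries of day 0 lie far apart, at 192 and 309 CPM, and the later libraries run from 160 to 177.

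The genes whose course lay nearest to each member were found as the smallest distance in the plane of the 2 log2 fold changes, over 3 days and 6 libraries. For Slc4a1 these were the β-globin genes Hbb-b1, Hbb-bs and Hbb-bt, at distances of 0.41 to 0.47. They are near-identical copies, and how shared reads were counted is not given in the sources used here, so their values may not be independent. Hbb-b1 and Hbb-bs had the same log2 fold changes, 4.44 in the first step and 2.48 in the second. For Rhd they were Arsg, Vwf and Azin2 (0.26 to 0.33), and for Aqp1 Dnm1, Hcn2 and Slc7a3 (0.09 to 0.13). Gypc lay nearest to Tmem140, Ell2 and Wbp1 (0.03 to 0.05), Kel to Firre, Dapk2 and Ptp4a3 (0.03 to 0.04), and Xk to 4930402H24Rik, Map4k3 and Kansl1l (0.01 to 0.02). Ermap lay nearest to Rab11fip5, Gid8 and Nat8f4 (0.01 to 0.02), Rhag to Mtmr4, Hif3a and Bnip2 (0.01), and Icam4 to Parpbp, Etaa1 and Ggta1 (0.02 to 0.03). Among the genes searched, Slc4a1 and Rhd stand in sparse parts of the plane, where the nearest is still 0.41 and 0.26 away.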

How the data were processed

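Poly(A) RNA from MEL cells was sequenced as stranded mRNA-seq on days 0, 2 and 4 of DMSO, with 2 cultures a day. The authors used cutadapt against adapters and TopHat against mm10, and what they deposited are whole-number read counts, 1 value per RefSeq transcript and library, unnormalized and not pooled. HTSeq stands in the submitters' processing notes, but its role, its settings for strand and shared reads, and the annotation release are not given in the sources used here. Reads in the deposited row for no feature (50.5% to 58.4% of each file's total) stayed out of library sizes and tests.

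Days and replicate numbers came from the labels. Of 32654 transcripts, 32199 matched a symbol in a RefSeq table of GRCm38.p6, and the transcript with the highest mean count stood for its gene. Gene coordinates came from the RefSeq table. Lengths for TPM, exon and codon numbers and overlaps came from GENCODE vM21. TPM, over 1 transcript per gene, covered 97.9% to 99.1% of the counts on those transcripts. The test was edgeR 4.0.16 (R 4.3.3) with TMM factors, filterByExpr by day and 1 quasi-likelihood fit over the 6 libraries with a mean per day. Standard errors are the log2 fold change divided by the square root of F, and 95% intervals use the t distribution with the degrees of freedom of the fit. Counts of replicates differed by more than sampling noise (chi-square per degree of freedom 60.3 at day 0, 10.8 at day 2 and 16.9 at day 4). Each library was treated as a sample. This excess cannot tell separate cultures from separate library preparations. Intervals on counts cover counting error only. The fits were tested on simulated data.

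The members and lists were chosen with earlier results of these data known. Besides the members, the genes named are, from each list, the 2 largest rises and 2 largest falls over the whole interval among its called genes (average log2 CPM of 1 or more, no overlap of day 4 with day 0 libraries), then Klf1, Gata1 and Tal1, the most abundant relative of each family, and the 3 tested genes nearest to each member. A gene that the rule also names is not reported here. Ank1, Epb41, Mpp1, Vps13a, Aqp3, Rhbg, Cd8a and Sema7a lie outside this rule and were picked after their values were seen. Alternatives were DESeq2 1.42.0, relative log expression factors, total counts, scaling without globin transcripts, no filter beyond 1 count, fitting just the days compared, a replicate block, a minimum size of 1 on the log2 scale, the longest transcript, and leaving out each library.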

Additional observations from a re-analysis of the deposited data

Results flagged for a closer look

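The change of 6 members differed between the first step, from day 0 to day 2, and the second, from day 2 to day 4, by edgeR's quasi-likelihood test of the difference between the steps. In Rhd the second step minus the first was -3.46 on the log2 scale (SE 0.22, adjusted p = 2.37e-05), and in Aqp1 it was -2.60 (SE 0.28, adjusted p = 0.000173). In Slc4a1 it was -1.69 (SE 0.44, adjusted p = 0.0155), in Xk -0.98 (SE 0.21, adjusted p = 0.0064), in Icam4 -0.96 (SE 0.20, adjusted p = 0.00534) and in Ermap -0.69 (SE 0.18, adjusted p = 0.0164). Among all tested genes the signed second step was below the first in 16.9% and above it in 13.2%. The day 2 libraries enter both steps with opposite sign. Rhd and Aqp1 kept the call without any one library, and the other 4 lost it without at least 1 of the day 2 libraries.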

How the results depend on the processing

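DESeq2, relative log expression factors, scaling without globin transcripts and the replicate block each left all 36 changes of the members (9 genes, 4 comparisons) with their direction and call. Choosing the longest transcript could not change them, because each member has 1 transcript in the files. Same-numbered libraries shared little deviation (correlations of 0.0316 to 0.0791). The sources used here do not give whether the replicate numbers pair the libraries. With the replicate block 7672 genes were called for day 2 against day 0 (7715 without), and the count of erythroid transcription factors lower for day 4 against day 2 went from 1 to 0. With total counts, 4 of those factors were higher for day 2 against day 0. A minimum size of 1 on the log2 scale left 0 members lower in either comparison with day 4 and 3 with unequal steps. It also took Kel (0.77) and Ermap (0.69) off those higher in the first step. Kel (0.80) dropped out in the second step and Ermap (0.69) over the whole interval. Leaving out single libraries gave 0 to 1 members lower for day 2 against day 0 (Rhag, without day 0 replicate 2) and 2 to 7 with unequal steps; the lone library of a day is then assumed to vary like the others.

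Signs turned only in changes that were not called. With total counts Rhag for day 2 against day 0 was 0.0774, Kel for the second step minus the first -0.25 and Ermap for day 4 against day 2 -0.082. Ermap was -0.00377 with no filter and -0.00544 with only the days compared. Leaving out single libraries gave -0.28 to 0.0532 for Rhag for day 2 against day 0, -0.0335 to 0.30 for Rhag for day 4 against day 0, -0.18 to 0.14 for Rhd, -0.00939 to 0.21 for Xk, -0.15 to 0.34 for Aqp1 and -0.00974 to 0.00674 for Ermap, all 4 for day 4 against day 2, and -0.0448 to 0.0984 for the step difference of Kel. Rhag for day 4 against day 2 was called with only the days compared (0.25, adjusted p = 0.0434; 0.043 to 0.681 when libraries were left out). The step difference of Gypc was called with total counts (-0.64, adjusted p = 0.023). The cause was not tested.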
